A study of Mus musculus with 6 samples.

Results

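The genes described here encode a Slit receptor, semaphorins and plexins, families of cell-surface guidance molecules. They are the rows of the deposited table whose Ensembl identifiers carry one of 10 gene symbols in GENCODE M21: Robo1, Sema5a, Sema4a, Sema4b, Sema4d, Sema7a, Plxna1, Plxnb2, Plxnc1 and Plxnd1. All 10 were found among the 14864 genes of the table, and all 10 were among the 14855 genes tested. The set was chosen by measured values of this comparison, the higher level of Robo1 and the lower level of Sema5a in the knockout libraries. The differences of those 2 genes are therefore given as a description, without a test.

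The RNA came from marginal zone B cells, sorted by flow cytometry from the spleens of C57BL/6 mice at 8 weeks of age. Of the 6 libraries, 3 are labelled wild type (WT) and 3 carry the label of a CK2α conditional knockout (cKO). Csnk2a1 encodes CK2α, a catalytic subunit of the protein kinase CK2. Neither the Cre line behind the deletion nor the deleted exons were stated in the labels, nor whether different libraries are from different mice. P-values therefore cover only the spread among these libraries, and that spread could be technical.

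Robo receptors bind secreted Slit proteins, and in neurons and leukocytes they redirect the growth or migration of the cell by acting on the actin cytoskeleton. Semaphorins are ligands that are secreted, span the membrane or are tied to it by a lipid anchor, and plexins are their main receptors. A plexin that has bound its semaphorin acts through a GTPase-activating domain on small GTPases of the Ras and Rap families, which lowers integrin adhesion. Membrane-bound class 4 and class 7 semaphorins are also known for their part in contacts between lymphocytes and other immune cells. Marginal zone B cells move between the border of the splenic white pulp and the follicles.

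The B cell markers Ms4a1, Cd79a, Cd79b and Pax5 were abundant in every library. Cd79a, a chain of the B cell receptor complex, was at 32558 to 36820.4 normalised reads in WT and 32322 to 38077 in cKO, and Pax5, the B lineage transcription factor, at 27449.6 to 28277 and 26697 to 30079. All 10 marginal zone markers examined were measured as well. The libraries held 18778776 to 23503756 reads. Csnk2a1 itself was no lower in cKO, with 4069, 3861 and 3939 normalised reads in WT and 4124, 3951 and 4060.4 in cKO (log2 difference 0.032 ± 0.05, adjusted p = 0.734 by limma). A count over the whole gene need not show a deleted exon, so this does not check the labels, and directions are given by library label throughout. The summed level of 6 follicular B cell markers was 48934 to 54138 in WT, but 38117 in cKO replicate 1, 52320 in cKO replicate 2 and 38309 in cKO replicate 3. The cKO replicate 2 value lay within the WT range. In bulk RNA, fewer cells of a type and less RNA per cell cannot be told apart.

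The sequences just before the transcription starts of Robo1, Sema5a and Plxnd1 are shown because these genes had the differences described first below. They are the 250 bases before a RefSeq start (build GRCm38.p6), 5′ to 3′ on the strand of the gene, at chr16:72662899-72663148 on the plus strand for Robo1, chr15:32244563-32244812 on the plus strand for Sema5a and chr6:115995006-115995255 on the minus strand for Plxnd1. Capitals mark each match, on either strand, to GGGCGG (the GC box), TGGGAA (the core of sites for the Notch factor RBPJ), CACGTG (an E-box) or TGACTCA (an AP-1 site).
Robo1: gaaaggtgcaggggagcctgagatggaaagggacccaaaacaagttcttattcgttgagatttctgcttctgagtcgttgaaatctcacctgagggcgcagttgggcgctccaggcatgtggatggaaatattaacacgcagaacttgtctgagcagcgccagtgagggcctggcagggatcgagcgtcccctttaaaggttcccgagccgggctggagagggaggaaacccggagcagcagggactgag
Sema5a: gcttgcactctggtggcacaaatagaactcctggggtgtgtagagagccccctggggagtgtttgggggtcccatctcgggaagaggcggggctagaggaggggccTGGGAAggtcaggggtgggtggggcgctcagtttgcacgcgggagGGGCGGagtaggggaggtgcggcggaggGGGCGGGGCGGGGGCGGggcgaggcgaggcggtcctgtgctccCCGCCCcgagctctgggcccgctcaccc
Plxnd1: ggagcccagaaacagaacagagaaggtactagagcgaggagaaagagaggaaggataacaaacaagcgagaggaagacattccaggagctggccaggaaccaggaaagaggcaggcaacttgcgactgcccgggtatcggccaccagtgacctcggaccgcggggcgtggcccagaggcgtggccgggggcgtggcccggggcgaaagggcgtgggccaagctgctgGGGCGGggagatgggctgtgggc
The Robo1 window held none of the 4 motifs. The Sema5a window held 5 GC boxes, whose first bases lay 99, 71, 66, 60 and 28 bases before the start and some of which share a base, and 1 RBPJ core at 144 bases. The Plxnd1 window held 1 GC box, at 23 bases. A GC box was found in 32.7% and an RBPJ core in 21.6% of all 32851 windows of this length, and an E-box and an AP-1 site in 6.02% and 4.46%. Over the 16 windows of the 9 genes that the table covers, 12 held a GC box, 5 an RBPJ core, 1 an E-box and 0 an AP-1 site, but several windows belong to the same gene. The windows of Robo1, Sema5a and Plxnd1 contained 11, 17 and 16 CpG dinucleotides, against a median of 6 over all windows. Of all windows, 64.4%, 76.5% and 74.6% had fewer than these. The gene-level values do not tell transcription starts apart.

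Robo1, the receptor that binds Slit ligands, was close to the lower limit of detection in WT and higher in all cKO libraries. It stood at 9.88, 6.32 and 15.7 normalised reads in WT replicates 1, 2 and 3, from 9, 6 and 16 reads, and at 78.4, 73.0 and 64.0 in cKO replicates 1, 2 and 3, from 88, 77 and 62 reads. The lowest cKO library was thus well above the highest WT library. The means were 10.6 ± 4.71 and 71.8 ± 7.31 (SD, n = 3 each), a ratio of 6.76. Subtracting WT from cKO on the log2(value + 1) scale gave 2.72 ± 0.32 (SE), which ranked 11th from the highest among all genes tested. That scale understates the change of a gene this low, and a pseudocount of 5 gave 2.34. Per kilobase of exon, Robo1 was at 0.599, 0.383 and 0.948 normalised reads in WT and 4.75, 4.42 and 3.87 in cKO, low levels in both groups.

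Sema5a, a transmembrane semaphorin with thrombospondin repeats beside its semaphorin domain, moved the other way. It was at 379.9, 291 and 336 normalised reads in WT replicates 1, 2 and 3 and at 182, 129.8 and 122 in the cKO replicates. The groups did not overlap, and cKO replicate 1 was the highest of the cKO libraries. The means of 335 ± 44.5 and 144 ± 32.6 (SD, n = 3 each) gave a ratio of 0.431 and a log2 difference of -1.22 ± 0.16, the 73rd from the lowest of all genes tested. Plxna1 and Plxna3 are known receptors of Sema5a in the nervous system. Plxna3, named here as that partner and outside the naming rule, stood at 264 ± 9.3 in WT and 232 ± 24.2 in cKO (adjusted p = 0.306 by limma), with overlapping groups.

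**Figure D1:**
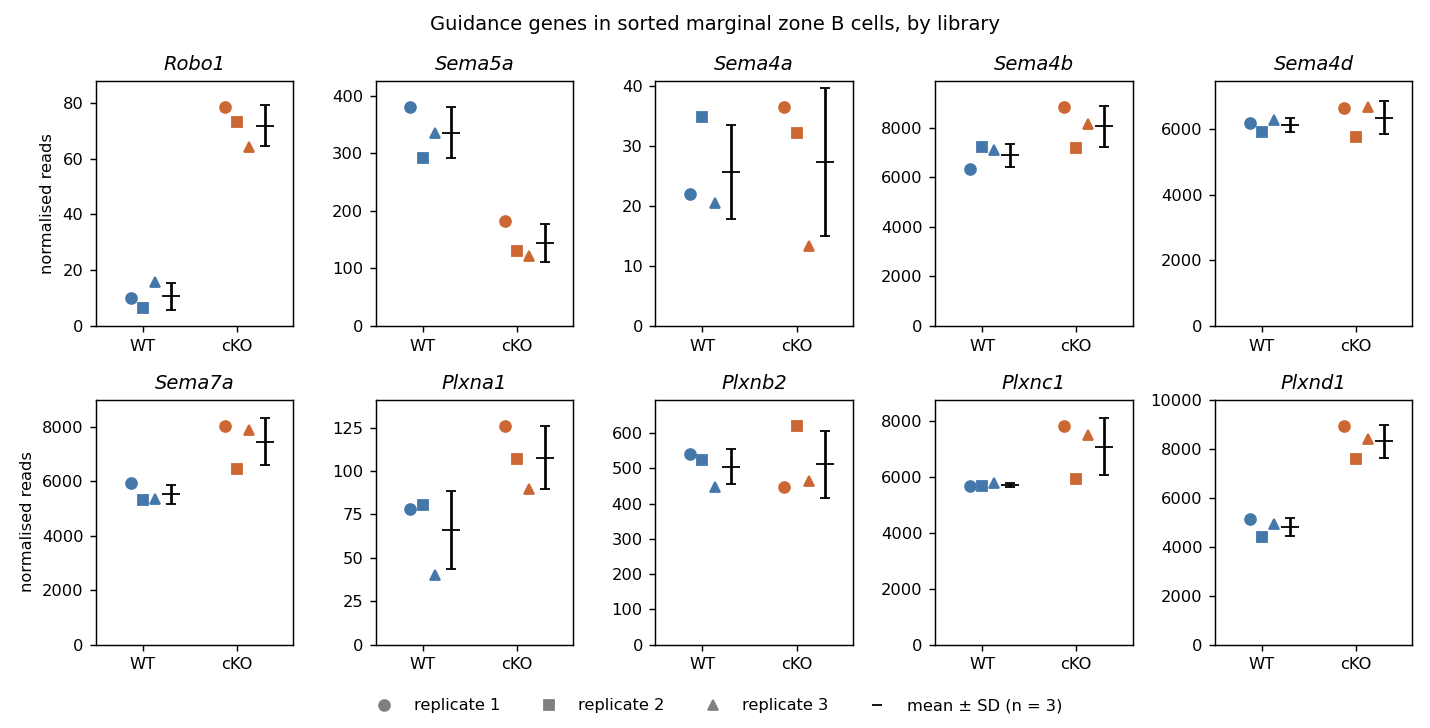
Normalised reads of each guidance gene (vertical axes, from 0, with a scale for each gene) in the 3 WT and 3 cKO libraries. Points are libraries, with shapes for the replicate number, and bars are the mean ± SD; the groups are apart for Robo1, Sema5a, Sema7a, Plxna1, Plxnc1 and Plxnd1 and overlap for Sema4a, Sema4b, Sema4d and Plxnb2.

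The other 8 genes were chosen with results of this comparison known, and their tests are given as rows of the limma fit across all genes (Benjamini-Hochberg adjustment over the 14855 genes). Of these 8, Sema7a and Plxnd1 rose (2 of 8, where 5.08% of all genes tested rose), none fell (0 of 8, against 4.97%) and 6 did not pass. Over all 10 genes, 4 passed the threshold of 0.05, where 10.1% of all genes tested did, and 6 had groups without overlap, as for 31.6% of all genes tested. The 10 include both genes the set was chosen for, and nothing is read from these counts. The median log2 difference was 0.26 over the 10 genes and also over the 8, against -0.0009 over all genes tested.

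Among the plexins, Plxnd1 had the clearest difference. Plxnd1 is a receptor for Sema3e and for Sema4a. It stood at 5128, 4412 and 4919 normalised reads in WT replicates 1, 2 and 3 and at 8942, 7593 and 8408 in the cKO replicates. The lowest cKO library was far above the highest WT library. The means were 4819.7 ± 368 and 8314 ± 679 (SD, n = 3 each), with a ratio of 1.73 and a log2 difference of 0.79 ± 0.07 (adjusted p = 0.000321 by limma). It kept its call in all 17 alternative settings, with log2 differences between 0.64 and 0.85. Plxnd1 is known from endothelium. The endothelial markers Kdr and Tek were not among the genes with deposited values. Cdh5 was at 44.3 to 65.5 in WT and 60.6 to 71.2 in cKO, and Vwf was at 7.83 to 16.9 and 7.22 to 19.6. Stab2 was at 17.6 to 23.2 and 8.53 to 20.5, and Col3a1 at 19.8 to 31.3 and 17.1 to 21.7. The part of endothelial cells in the Plxnd1 difference was not tested. Pecam1, which B cells express too, made up most of the summed endothelial and stromal level of 4426 to 5277 in WT and 4341 to 5391 in cKO, and none of its 5 measured markers of 10 passed the test.

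Plxnc1, the plexin that binds Sema7a, was nearly constant in WT at 5651, 5653 and 5778 normalised reads. In cKO it was at 7814, 5907 and 7479, so that replicate 2 lay only just above the WT libraries. Its log2 difference, 0.30 ± 0.09, missed the threshold (limma adjusted p = 0.0566), although the groups did not overlap. It passed with edgeR (0.0488) and DESeq2 (0.00883), and without cKO replicate 2 (0.000802, log2 difference 0.43). Across the 17 alternatives its adjusted p ran from 0.000802 to 0.701.

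Plxna1, a plexin that pairs with neuropilins to receive class 3 semaphorins, was low. It was at 78.0, 80.1 and 40.1 normalised reads in WT and 126, 107 and 89.8 in cKO. The groups did not overlap, but the difference of 0.75 ± 0.26 on the log2 scale did not pass (adjusted p = 0.0962 by limma), and it was 0.43 without WT replicate 3. An antisense transcript, Gm26811, lies over 10.7% of the Plxna1 exons, and without a stated strand setting its reads cannot be told apart from those of Plxna1.

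Plxnb2, a receptor of class 4 semaphorins, showed no detectable difference. It was at 542, 523 and 448 normalised reads in WT and 448, 621 and 465 in cKO, with overlapping groups. The 95% interval of the ratio of cKO to WT ran from 0.831 to 1.22 (adjusted p = 0.975 by limma). In contrast to Plxnc1 and Plxnd1, its highest value was that of cKO replicate 2.

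Among the semaphorins, Sema7a rose. Sema7a is anchored to the membrane by a lipid and binds integrins as well as Plxnc1. It stood at 5931, 5294 and 5345 normalised reads in WT replicates 1, 2 and 3 and at 8035, 6453 and 7870.1 in the cKO replicates. All cKO libraries were above all WT libraries, and cKO replicate 2 was the nearest to them. The means were 5523 ± 354 and 7453 ± 869.6 (SD, n = 3 each), a ratio of 1.35 and a log2 difference of 0.43 ± 0.08 (adjusted p = 0.012 by limma). The call was lost without WT replicate 3 (0.061) or cKO replicate 3 (0.0569), and when the follicular score was a covariate (0.144, log2 difference 0.21).

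The class 4 semaphorins did not pass the test. Sema4b was at 6332, 7216 and 7082 normalised reads in WT and 8817, 7191 and 8149 in cKO, with cKO replicate 2 inside the WT range (log2 difference 0.23 ± 0.08, adjusted p = 0.0951 by limma). It passed without cKO replicate 2 (0.0193, log2 difference 0.30) and with DESeq2 (0.0496), and it was 0.089 on the log2 scale when the follicular score was a covariate. Sema4d, also called CD100, is a ligand of CD72 on B cells and of plexins of the B class. It was at 6194, 5895 and 6288 in WT and 6625, 5763 and 6662 in cKO, with a 95% interval of the ratio of 0.937 to 1.14 (adjusted p = 0.676). Sema4a, known for costimulation of T cells, was low in both groups, at 22.0, 34.8 and 20.5 in WT and 36.5, 32.2 and 13.4 in cKO. Its interval of 0.557 to 1.81 was wide, so a difference inside it could have been missed. Sema4a had 13 to 41 reads per library and spread widely within the groups, at 25.8 ± 7.84 in WT and 27.4 ± 12.3 in cKO (SD).

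In Sema4b, Sema7a, Plxnc1 and Plxnd1 alike, cKO replicate 1 was the highest of the cKO libraries and cKO replicate 2 the lowest. The summed level of the 6 follicular markers had the opposite order, being highest in cKO replicate 2 and lowest in cKO replicate 1. Of those markers, Cxcr5, a chemokine receptor of follicle homing, had the same order as the 4 genes instead, at 9693, 8460.4 and 9198 normalised reads in the cKO replicates. With the follicular score as a covariate, the log2 differences were 0.089 for Sema4b, 0.21 for Sema7a, 0.06 for Plxnc1 and 0.64 for Plxnd1, against 0.23, 0.43, 0.30 and 0.79 without it. Those of Robo1 and Sema5a were 2.69 and -1.42 with the score. The score was 0.10 to 0.21 in WT and -0.35, 0.16 and -0.30 in cKO replicates 1, 2 and 3. Except in cKO replicate 2 it followed the groups, so these fits cannot separate the score from the genotype label. Among the follicular markers Ccr7 and Klf2 fell, and among the marginal zone markers Cd1d1, Cd9 and Mzb1 rose. Markers of other cell types moved as well. The 4 measured T cell markers of 8 summed to 644 to 750 normalised reads in WT and 335 to 470 in cKO, and Lck, which made up most of that sum, fell (adjusted p = 0.00534 by limma). The 5 measured plasma cell markers of 6 summed to 9243 to 13617 in WT and 7390.5 to 8895 in cKO, and Irf4, which B cells express too, fell (adjusted p = 0.0237 by limma). Of the 5 measured dendritic cell markers of 6, Zbtb46 rose, from 49.4 ± 13.2 to 94.4 ± 7.82 (adjusted p = 0.0252 by limma). Erythroid and platelet markers summed to 598 to 8734 in WT and 671 to 4109 in cKO. Macrophage and monocyte markers summed to 1746 to 2839 and 1439 to 2676. Both sums were highest in WT replicate 2 and cKO replicate 1 of their groups, and none of their markers passed. The part of these cell types and B cell subsets in the results was not tested.

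**Figure D2:**
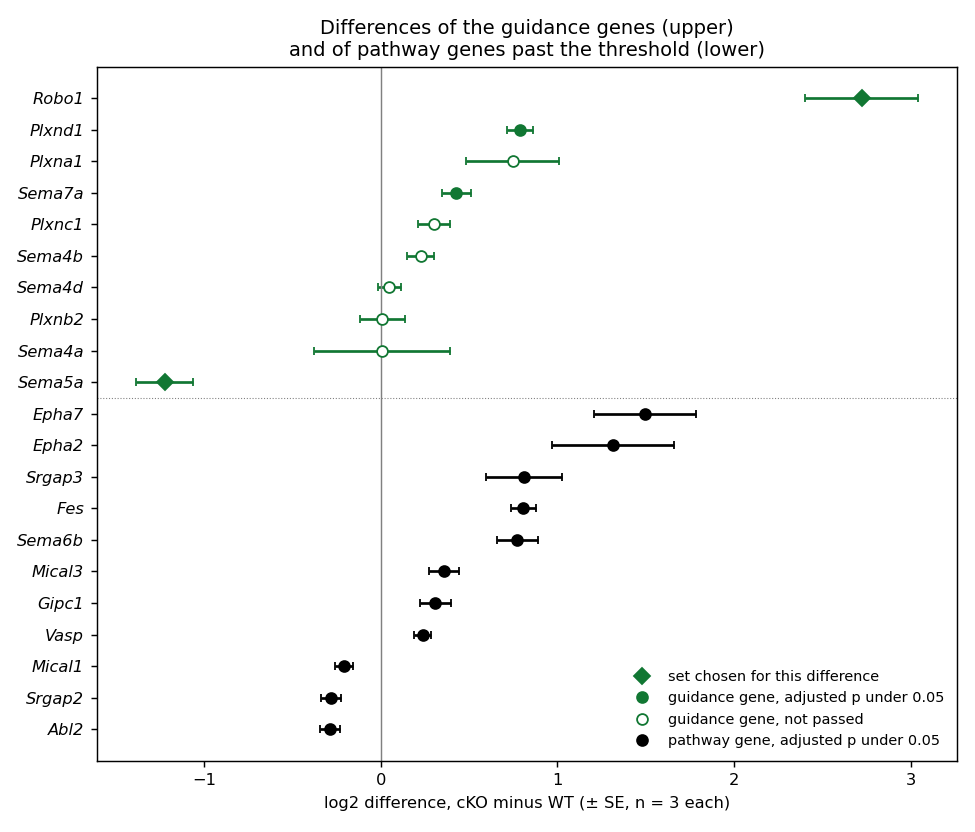
The cKO minus WT difference in log2(value + 1) on the horizontal axis, with its standard error, for the 10 guidance genes (upper) and for the 11 pathway genes that passed the limma test (lower). Filled circles passed, open circles did not, and diamonds are Robo1 and Sema5a, for which the set was chosen; Plxnd1 at 0.79 and Sema7a at 0.43 are the filled circles among the guidance genes.

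**Figure D3:**
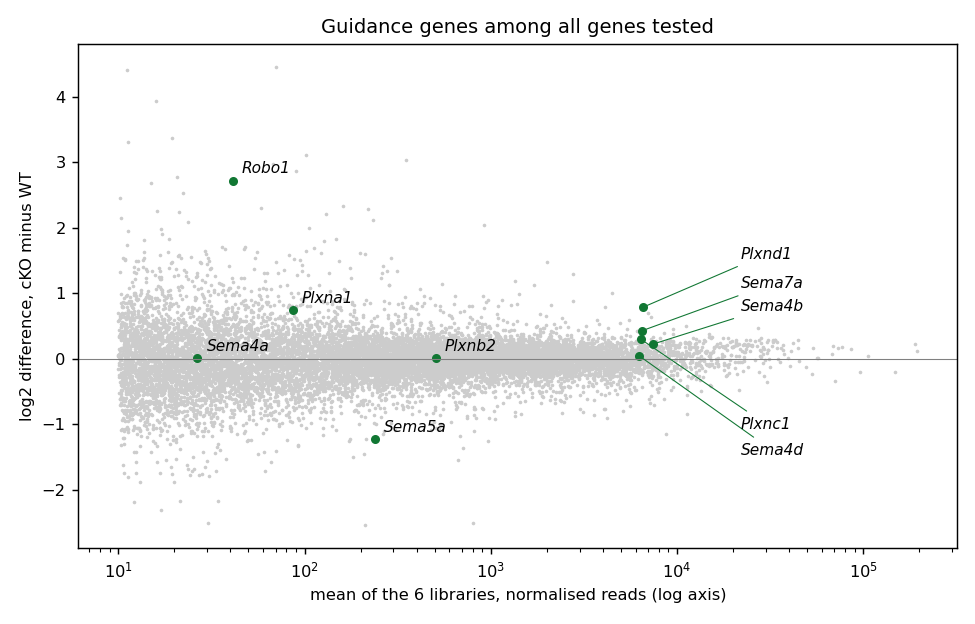
The log2 difference of cKO minus WT (vertical axis) against the mean of the 6 libraries in normalised reads (horizontal log axis) for all 14855 genes tested (grey) and the 10 guidance genes (green). Robo1 at 2.72 and Sema5a at -1.22 lie at the edge of the cloud at a mean of 41.2 and 240 normalised reads, and the 5 most abundant guidance genes lie between 0.049 and 0.79.

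Levels were compared between genes per kilobase of exon (GENCODE M21 exon union, which need not be the annotation the authors counted on). In WT, Sema7a was highest at 1675 ± 107 normalised reads per kb, then Sema4b at 1218 ± 84.5, Sema4d at 798 ± 26.7, Plxnc1 at 682 ± 8.74 and Plxnd1 at 660.1 ± 50.5 (SD, n = 3). Over the 6 libraries each of these 5 genes stood above at least 91.3% of all genes tested. Plxnb2 followed at 65.3 ± 6.45, Sema5a at 18.0 ± 2.38, Plxna1 at 7.30 ± 2.48, Sema4a at 4.77 ± 1.45 and Robo1 at 0.643 ± 0.285. In that order the WT libraries of Plxnc1 and Plxnd1 overlapped, as did those of Plxna1 and Sema4a, while all other neighbours were apart.

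The order differed in cKO. Plxnd1, at 1139 ± 93.0 normalised reads per kb, then stood above Plxnc1 at 846 ± 122 and Sema4d at 827 ± 66.2, which overlapped each other. Plxna1 at 11.9 ± 1.98 stood above Sema5a at 7.73 ± 1.75, with Sema4a at 5.07 ± 2.28 and Robo1 at 4.35 ± 0.442 below. The cKO libraries of Sema5a and Sema4a overlapped, and so did those of Sema4a and Robo1.

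**Figure D4:**
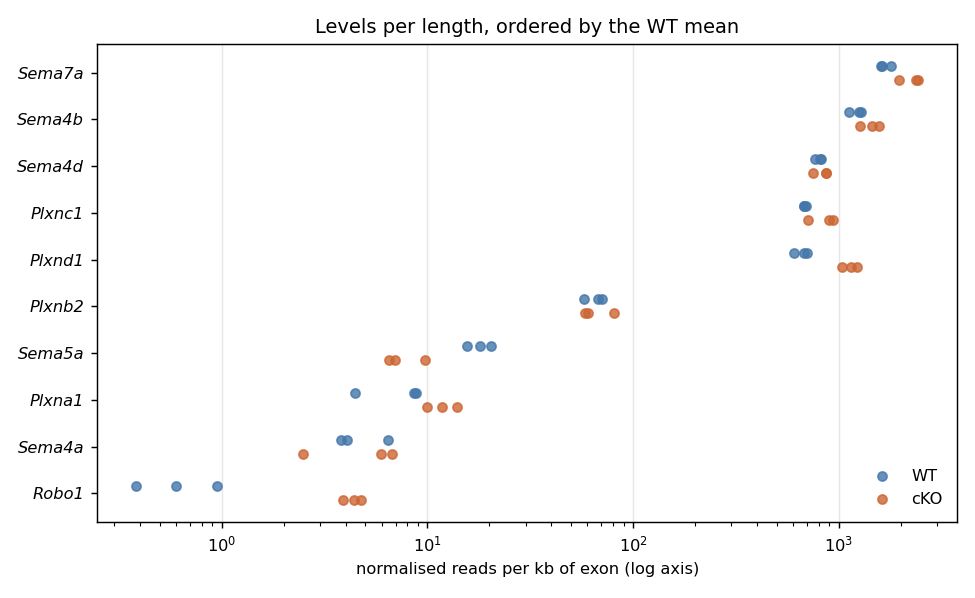
Normalised reads per kilobase of exon (horizontal log axis) in each WT and cKO library, with the genes in the order of their WT means. Sema7a is at the top in both groups, Plxnd1 passes Plxnc1 and Sema4d in cKO, and Robo1 is at the bottom in both groups.

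Summed per kilobase, these 4 plexin genes were at 1458, 1358 and 1428 normalised reads per kb in WT and 2233, 1839.8 and 2118 in cKO, and Plxnd1 and Plxnc1 made up nearly all of it. The share of Plxnd1 in that sum was 44.5% to 48.2% in WT and 54.4% to 56.5% in cKO. The share of Plxnc1 was 46.4% to 49.9% and 38.5% to 42.3%. The 5 semaphorin genes summed to 3751, 3673 and 3716 in WT and 4878, 3994 and 4706 in cKO, of which Sema7a took 43.6% to 47.9% and 49.0% to 50.7%, and Sema4d 20.9% to 22.0% and 17.7% to 18.8%. A share falls when another gene of the sum rises, and the level of Plxnc1 was not lower in cKO.

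The partners and effectors of these genes came from 5 lists written from general knowledge. Over all genes tested, 5.08% rose and 4.97% fell, and the median log2 difference was -0.0009. Nothing is read from the counts of a list. Of 15 other semaphorin genes, 3 were tested, Sema6b rose and none fell, with a list median of -0.098. Sema6b, a transmembrane ligand of class A plexins, was at 319.5, 260.3 and 264 normalised reads in WT and 531, 425 and 489 in cKO, without overlap (log2 difference 0.77 ± 0.12, adjusted p = 0.00363 by limma). With the follicular score as a covariate it gave an adjusted p of 0.0627. Sema4g and Sema6d were between 6.63 and 36.9 normalised reads in each library and did not pass (adjusted p = 0.888 and 0.201).

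Of 13 other semaphorin receptors, 8 were tested, and none passed the limma test, the edgeR test or the DESeq2 test. At an unadjusted p under 0.05, limma gave 2 of the 8, where it gave 3983 of all 14855 genes tested. The median was 0.18, against -0.0009 over all genes tested. Cd72, the inhibitory B cell receptor that Sema4d engages, was at 8588 ± 179 in WT and 8063 ± 603 in cKO (adjusted p = 0.357), and its exons overlap those of Tesk1 over 41.6% of their length. Itgb1, the integrin chain that Sema7a binds, was at 1941 ± 47.8 and 2122 ± 171 (adjusted p = 0.244). Nrp2, a neuropilin that serves as coreceptor of plexins, was at 773, 708 and 758 in WT and 1417, 758 and 1155 in cKO, so cKO replicate 2 lay inside the WT range. It did not pass (log2 difference 0.53 ± 0.17, adjusted p = 0.079 by limma), but without cKO replicate 2 it gave 0.78 (adjusted p = 0.000486). Plxnb1, named outside the rule as a plexin of the B class, was low, at 10.1 ± 5.06 in WT and 23.8 ± 1.81 in cKO. Its groups did not overlap, but it did not pass (log2 difference 1.26 ± 0.39, adjusted p = 0.0634 by limma), with 5 to 28 reads per library.

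Of 24 genes of Slit ligands, other Robo receptors and Robo signalling, 19 were tested, 2 rose and 2 fell, with a median of 0.024. Among all genes tested, 5.08% rose and 4.97% fell. The Slit and Robo GTPase-activating proteins, which bind Robo1 and act on small GTPases, went both ways. Srgap3 rose from 358, 302 and 495 normalised reads in WT to 909, 482 and 663 in cKO, where replicate 2 lay below WT replicate 3 (0.81 ± 0.22, adjusted p = 0.0393 by limma). That call was lost in 7 of the 17 alternatives, among them DESeq2, and with the follicular score the difference was 0.34. Srgap2 fell from 1416 ± 29.1 to 1165 ± 22.2 (-0.28 ± 0.06, adjusted p = 0.0137). Abl2, a kinase related to Abl, which opposes Robo signals, fell from 2961 ± 105 to 2427 ± 92.9 (-0.29 ± 0.06, adjusted p = 0.0115). Vasp, an actin regulator of the Ena family, rose from 8367 ± 148 to 9866 ± 88.2 (0.24 ± 0.05, adjusted p = 0.0152). Srgap2 lost its call without WT replicate 1 (0.0511), Abl2 without WT replicate 3 (0.0522), and Vasp without WT replicate 3 (0.065) or cKO replicate 3 (0.0586). With the follicular score as a covariate, Srgap2 and Vasp also missed the threshold (0.0687 and 0.0849), while their log2 differences were no smaller, at -0.31 and 0.25.

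The ligands of Robo1 were low where measured. Slit1 and Slit3, named outside the rule as ligands of Robo1, were at 19.3 ± 6.3 and 71.7 ± 16.2 normalised reads in WT and 24.0 ± 4.73 and 69.4 ± 9.7 in cKO (adjusted p = 0.559 and 0.946 by limma). Slit2 and the other Robo receptors were not analysed here. Evl and Myo9b, the other abundant genes of that list, were at 5149.5 ± 55.6 and 4985 ± 395 in WT and did not pass (adjusted p = 0.0883 and 0.211).

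Of 30 genes of plexin signalling, 25 were tested, 3 rose and 1 fell, with a median of -0.029. The shares over all genes tested were 5.08% and 4.97%. Fes, a tyrosine kinase that acts downstream of class A plexins, was at 550.1, 613 and 562 normalised reads in WT and 1007, 990.3 and 1021 in cKO. Its log2 difference of 0.81 ± 0.07 (adjusted p = 0.000189 by limma) kept its call in all 17 alternatives, the 1 pathway gene of the 11 called for which this held. The MICAL enzymes, which oxidise actin downstream of plexins, went in opposite directions. Mical3 rose from 1545 ± 107 to 1987 ± 231 (0.36 ± 0.09, adjusted p = 0.0266) and Mical1 fell from 3889 ± 84.2 to 3366 ± 120.4 (-0.21 ± 0.05, adjusted p = 0.0309), where Mical1 shares 15% of its exon length with Smpd2 on the other strand. Gipc1, an adaptor that binds the tails of plexins, rose from 562 ± 46.4 to 697 ± 50.6 (0.31 ± 0.09, adjusted p = 0.0474). These 3 calls were lost in several settings, up to an adjusted p of 0.356, 0.186 and 0.216. The most abundant genes of the list, Ptpn6, Iqgap1 and Cfl1, did not pass (adjusted p = 0.726, 0.617 and 0.0564).

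Of 36 genes of the netrin, ephrin and repulsive guidance families, 11 were tested, 2 rose and none fell, with a median of 0.32. Across all genes tested, 5.08% rose and 4.97% fell, and the median was -0.0009. The ephrin receptor gene Epha7 was at 12.1, 22.1 and 13.7 normalised reads in WT and 43.7, 49.3 and 43.3 in cKO, without overlap (1.495 ± 0.29, adjusted p = 0.0115 by limma). Epha2 went from 14.2 ± 3.21 to 38.4 ± 16.8 (1.32 ± 0.34, adjusted p = 0.0371), a call lost in 7 of 16 alternatives. Both were low, and at a minimum mean of 50 neither was tested. Rgmb and Efnb1, which had the highest means of this list, were at 170 ± 19.1 and 135 ± 17.8 in WT and did not pass (adjusted p = 0.152 and 0.126 by limma).

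The genes whose 6 values were most like those of Robo1 and Sema5a were sought among 9378 named genes with a mean of at least 100, by the root mean square difference between log2 values centred on each gene's mean. For Robo1 they were Slc12a5, a neuronal potassium-chloride cotransporter (0.42), Stc1, a secreted glycoprotein hormone (0.47), and Dmpk, a muscle kinase (0.54). For Sema5a they were Inpp4b, a phosphoinositide phosphatase (0.18), Klf4, a transcription factor of quiescent lymphocytes (0.21), and Abcb1b, a drug efflux pump (0.21). Inpp4b stood at 1332, 1361 and 1417 normalised reads in WT and 627, 525 and 571 in cKO. The likeness rests mostly on the difference between the groups, and the genes share their libraries.

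**Figure D5:**
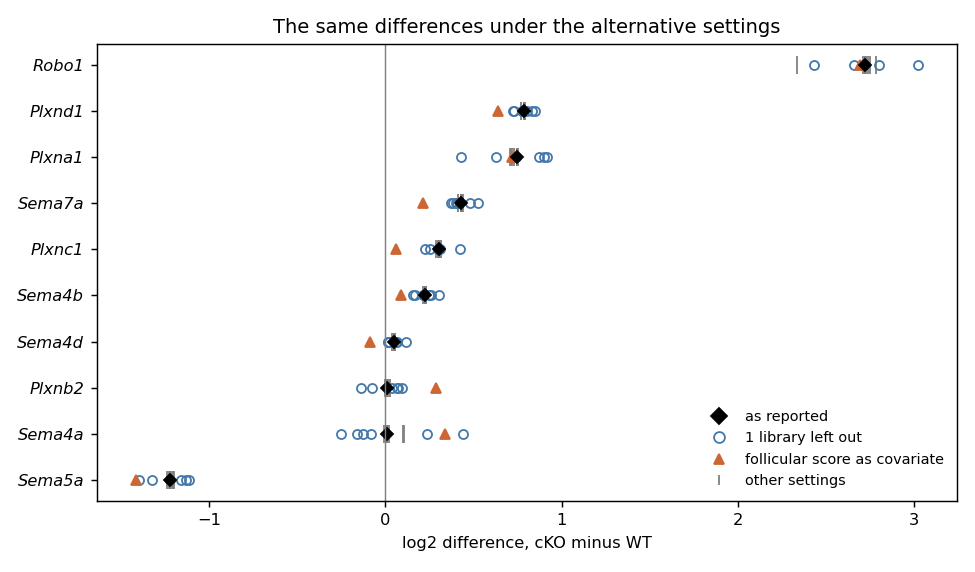
The log2 difference of cKO minus WT (horizontal axis) of each guidance gene as reported (diamonds), with 1 library left out (circles), with the follicular score as a covariate (triangles) and in the other settings (ticks). Robo1, Plxnd1, Plxna1, Sema7a, Plxnc1, Sema4b and Sema5a stay on 1 side of 0, and Sema4d, Plxnb2 and Sema4a are found on both sides. Apart from Sema4b, the genes on 1 side had groups without overlap, so leaving out 1 library could not turn their direction. The set was chosen for Robo1 and Sema5a.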

How the data were processed

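The deposited table holds a normalised signal for each gene and library. Judging from its values, the authors scaled gene read counts with 1 factor per library: in each library 100% of values came out within 0.02 of a whole number of reads, with 1 read worth 0.891 to 1.10. These values are called normalised reads here. The submitters' processing notes name STAR 2.5.2b, Trimmomatic 0.36, bcl2fastq 2.17 and the build mm9. How reads were counted, on which annotation and strand setting, and which tool set the factors is not given in the sources used here. GENCODE M21 named 14824 of 14864 identifiers. The RefSeq promoter windows are of GRCm38.p6, not the stated build, and were matched by symbol.

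The test was limma 3.58.1 in R 4.3.3 (eBayes with a trend), two-sided, on log2(value + 1) with genotype as the only term, for the 14855 genes with a mean of at least 10. P-values were adjusted by Benjamini-Hochberg over those genes at a threshold of 0.05, and "rose" and "fell" mean past it. Errors of log2 differences are standard errors. Alternatives were edgeR 4.0.16 and DESeq2 1.42.0 on the recovered reads, other scalings, pseudocounts, filters and moderation, a replicate block, a follicular score (the mean centred log2 value of 6 marker genes) as a covariate, and each library left out in turn. The fit was tested on simulated data. Libraries of a group differed by more than sampling noise (chi-square per gene 6.37 to 12.7).

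The members and lists were chosen with earlier results of these data known. The genes named are the 10 members, Csnk2a1, the genes of 5 pathway lists that passed and the 3 most abundant of each list, and the 3 genes most like Robo1 and Sema5a. No set test was run. Intervals cover the spread between libraries only.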

Additional observations from a re-analysis of the deposited data

How the results depend on the processing

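There were 17 alternatives, or 16 for Robo1 (mean 41.2), which the minimum mean of 50 left out. The log2 difference ran from 2.34 to 3.02 for Robo1, from -1.42 to -1.11 for Sema5a and from 0.64 to 0.85 for Plxnd1. The groups of these genes did not overlap, so leaving out 1 library could not turn their direction. The set was also chosen for the differences of Robo1 and Sema5a. Plxnd1 passed in each alternative, and the number of the 10 guidance genes called ran from 3 to 6, against 4. The cause of the changes that follow was not tested. Leaving out 1 library gave 497 to 1730 called genes over the whole table, against 1494: leaving out WT replicate 1 gave 510 and WT replicate 3 gave 497, while 927 and 531 were called when cKO replicate 1 or cKO replicate 3 was dropped. The log2 difference then ran from -0.25 to 0.44 for Sema4a, from 0.16 to 0.30 for Sema4b, from 0.37 to 0.53 for Sema7a, from -0.14 to 0.096 for Plxnb2, from 0.22 to 0.43 for Plxnc1, from -0.36 to 0.18 for Sema4g and from -0.11 to 0.0002 for Iqgap1. The number of called genes ran from 1 to 2 for other semaphorins, 0 to 1 for other semaphorin receptors, 2 to 5 for Slit ligands and Robo signalling, 1 to 5 for plexin signalling and 1 to 2 for the netrin, ephrin and repulsive guidance families. With the follicular score as a covariate, 325 genes were called over the whole table, and 0, 1, 1 and 0 among other semaphorins, Slit and Robo genes, plexin signalling and the netrin and ephrin families, while Sema7a (0.21) lost its call and the direction turned for Sema4d (-0.089), Csnk2a1 (-0.0099), Sema4g (0.19), Cd72 (0.022) and Iqgap1 (0.052). Rescaling without immunoglobulin genes turned Sema4a (-0.0065) and Plxnb2 (-0.0053). Sema4b passed with DESeq2 (0.23) and Plxnc1 with edgeR (0.32) and DESeq2 (0.31). At a minimum mean of 50, 0 genes of the netrin and ephrin families were called.

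The replicate numbers are shared by the groups, and whether they pair libraries was not stated in the labels. The deviations of same-numbered libraries correlated at -0.0745, -0.02 and 0.147 across genes, and not every library correlated best with its own number. With 3 libraries per group these correlations cannot decide whether the libraries were paired. With the replicate block Plxnc1 (0.30) and Plxna1 (0.75) passed, 1 other semaphorin receptor, Nrp2, was called and 1 gene of the netrin and ephrin families, and 1551 genes were called over the whole table.

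Of the 23 pathway genes named, 11 passed and 1 of those, Fes, passed in each alternative. Of their 387 values under the alternatives, 333 kept direction and side, 41 no longer passed, 7 newly passed and 6 turned. Low read numbers limit the precision for Sema4a, Sema6d, Slit1, Plxnb1, the Eph receptors and Robo1 in WT.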
